A study of Mus musculus with 18 samples.

Results

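In all, 9 complement genes were followed in BMDMs, macrophages grown from the bone marrow of female C57BL/6 mice. They were the C1q chain genes C1qa, C1qb and C1qc, the component genes C3, Cfb and Cfp, and the anaphylatoxin receptor genes C3ar1, C5ar1 and C5ar2. The set was fixed as a list of gene symbols and held 9 of the 22852 gene symbols in the count files. All 9 passed the expression filter, as did 11305 genes in all.

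Complement is a cascade of plasma and local proteins that tags microbes and dying cells. C1q opens the classical pathway on antibodies or damaged surfaces, C3 is the protein on which all pathways meet, and factor B with properdin drives and stabilises the alternative pathway that amplifies C3 cleavage. The small fragments released from C3 and C5 act on receptors of myeloid cells, and macrophages are among the cells that make many of these proteins themselves, C1q above all.

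RNA-Seq was performed on 18 samples, 3 biological replicates in each of 6 groups. Unstimulated BMDMs received neither LPS nor carboplatin, and LPS-stimulated BMDMs were exposed once to LPS at 10 ng/ml. The sample labels do not give the length of this exposure, and the 3 h of the study's scheme for a single-dose control may not hold for these samples. LPS-primed BMDMs were exposed for 24 h at 100 ng/ml. LPS-tolerant BMDMs had the same priming and then, in fresh medium, 3 h of LPS at 10 ng/ml. Primed and tolerant BMDMs were also prepared in the presence of carboplatin, a platinum drug that crosslinks DNA, given at 25 µM from 1 h before priming. All cells had been grown for 7 days in medium with L929-conditioned supernatant and horse serum, and which mice or cultures stood behind a replicate number was not given in the sources used here, so that p-values measure the spread between these samples.

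Each sample held from 6869667 to 14708099 read pairs assigned to genes. All 7 macrophage markers examined, among them Adgre1, Csf1r and Cd68, were above 10 counts in samples of every group. Their levels were not constant. From unstimulated to LPS-primed BMDMs, mean normalized counts went from 13555 to 40182 for Adgre1, from 29054.5 to 15207.5 for Cd68 and from 23028 to 24480 for Csf1r. Of 44 markers of other cell types, 38 did not exceed 10 counts in any sample and 16 of these were at 0 throughout. The exceptions moved with the groups: S100a8 went from a mean of 10.1 normalized counts in unstimulated to 238.1 in LPS-primed BMDMs, Dcn from 0.303 to 45.5, and Ighm went from 913.4 to 1.02, Kit from 21.8 to 0.313 and Cd79b from 10.8 to 6.23. Camp had 0 counts in unstimulated samples and 14 at most elsewhere. The part of other cells in the values below was not tested. In such bulk samples, fewer cells making a transcript and less transcript per cell cannot be told apart.

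The groups were compared with edgeR's quasi-likelihood test, fitted over all samples at once, with p-values adjusted by the Benjamini-Hochberg method over all 11305 genes. A gene is said to have risen or fallen at an adjusted p under 0.05. Values per sample are normalized counts, that is counts scaled by the TMM library size to the mean size of all libraries, and log2FC values are given with their standard error (SE). Same-numbered samples deviated together in each 2-group comparison, and the fit was therefore repeated with the replicate number as a block. The value of the blocked fit stands beside a result where it changed the call. After removal of group means, however, LPS-stimulated replicate 2 correlated at 0.237 with unstimulated replicate 2 and at 0.261 with an unstimulated sample of another number.

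**Figure D1:**
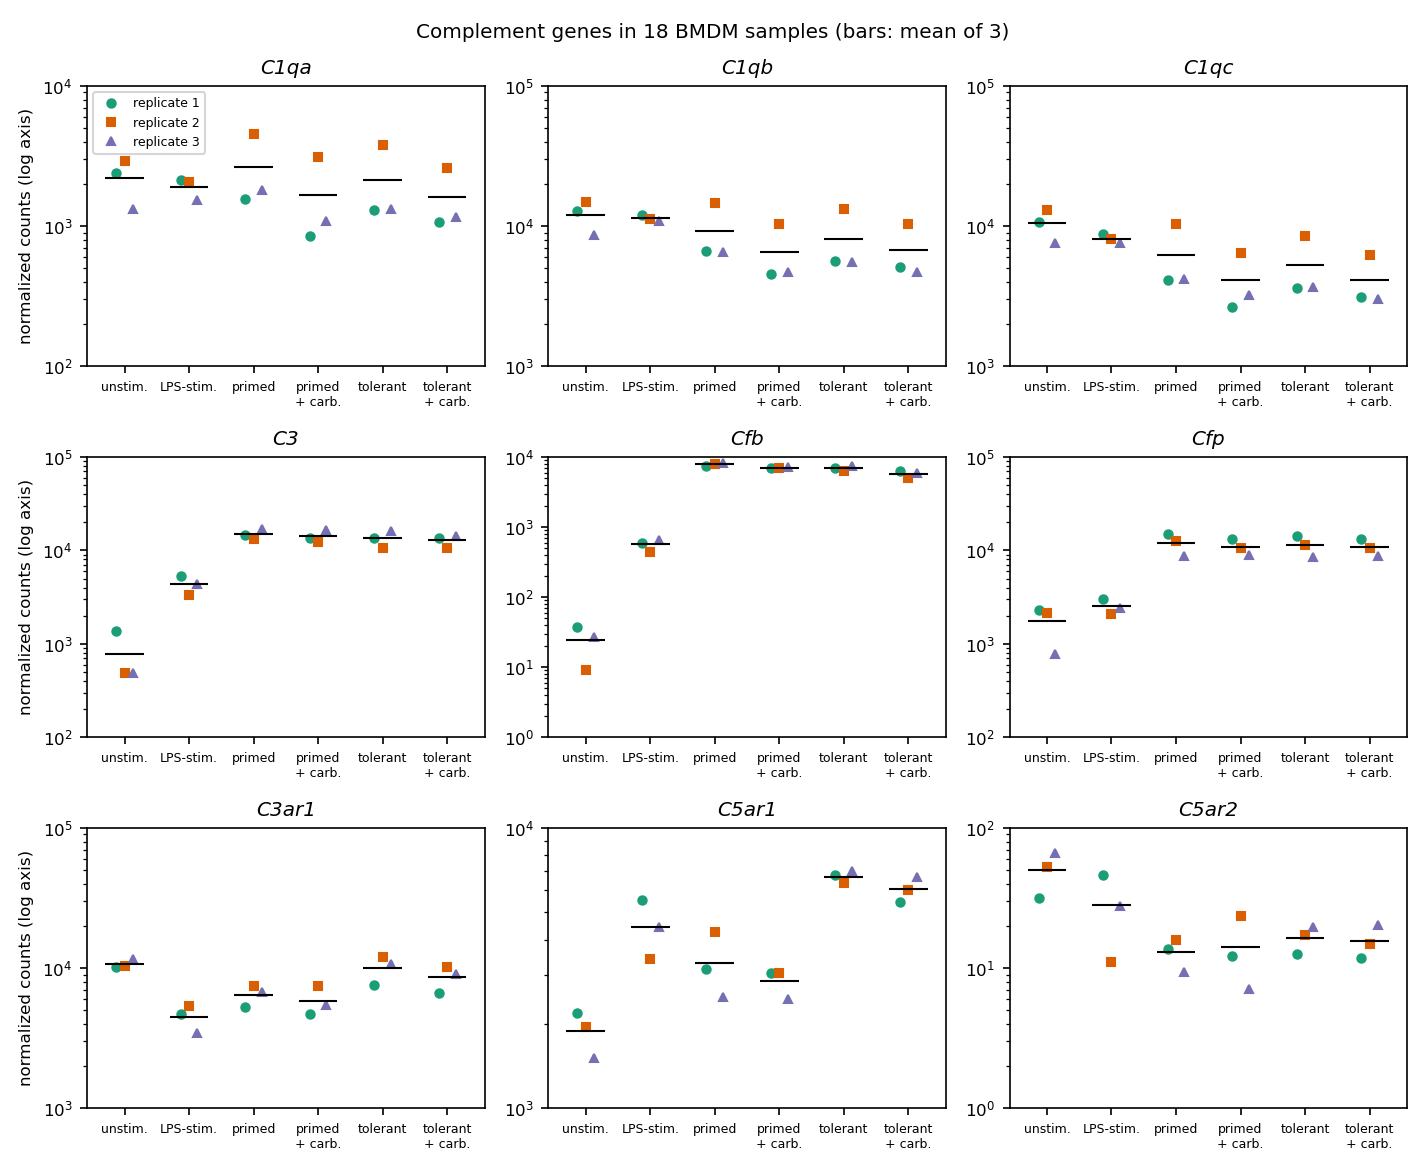
Normalized counts (log axis, one scale per gene) of the 9 complement genes in the 6 groups. Each symbol is a sample, its shape and colour give the replicate number, and black bars are means of 3. C3, Cfb and Cfp were highest in the 4 groups that had received LPS for 24 h, while the C1q symbols of replicate 2 lie above the others in those groups.

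After 24 h of LPS, 4 of the 9 genes rose and 2 fell. C3, Cfb, Cfp and C5ar1 were higher in LPS-primed than in unstimulated BMDMs, and C3ar1 and C5ar2 were lower, while the 3 C1q genes did not pass the test. Of all tested genes, 12.1% rose and 13.1% fell in this comparison, and the median log2FC was 0.26 for the members and -0.02 for all genes. At the limits of the study's methods (|log2FC| > 2 with an adjusted p under 0.05), 3 members passed, C3, Cfb and Cfp, against 7.47% of all genes.

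C3, the central component, had 1364, 483.6 and 485.4 normalized counts in the unstimulated samples. In the LPS-primed samples it had 14542, 13387 and 17052. The lowest primed sample thus lay far above the highest unstimulated one, which was replicate 1. The difference was a log2FC of 4.27 (SE 0.35, adjusted p = 1.3e-07, edgeR), and C3 was higher in 3 of 3 same-numbered pairs. Without unstimulated replicate 1 the log2FC was 4.96 (SE 0.27). The gene lies on the minus strand of chromosome 17 (57510964 to 57535155 on GRCm39) and is overlapped on the opposite strand by Gm65552. The strand setting of the counting step is not given in the sources used here, so reads of such partners could not be set apart.

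The 250 bases before the RefSeq start of C3 are shown because C3 rose in both LPS comparisons with unstimulated cells (chr17:57228137-57228386, GRCm38.p6, minus strand). Capitals mark the letters TTGCNNAA, a pattern of C/EBP factors, searched on both strands.
C3: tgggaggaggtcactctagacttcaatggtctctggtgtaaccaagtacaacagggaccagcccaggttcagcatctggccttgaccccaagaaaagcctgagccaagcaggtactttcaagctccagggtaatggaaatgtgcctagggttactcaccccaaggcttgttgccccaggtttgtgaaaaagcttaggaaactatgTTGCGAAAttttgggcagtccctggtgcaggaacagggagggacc
This pattern stood 45 to 38 bases before the start. It was found in 9.56% of the 32851 promoters of the same length in the table, and a match is a description of letters only.

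Cfb encodes factor B, the serine protease of the alternative pathway convertase, and had the largest difference among the members. Its counts were 39, 11 and 30 in the unstimulated samples, or 37.3, 9.02 and 27.3 normalized counts. The LPS-primed samples had 7499.5, 7943 and 8131 normalized counts. The log2FC was 8.34 (SE 0.34, adjusted p = 2.9e-11, edgeR), with unstimulated replicate 2 the lowest of all 18 samples. Cfb lies on chromosome 17 at 35074852 to 35081559, minus strand, and overlaps Gm20547 on its own strand and Nelfe on the other. Nelfe, which encodes a subunit of the negative elongation factor, had group means between 408.8 and 488.8 normalized counts and so did not follow Cfb.

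Cfp encodes properdin, the stabiliser of the alternative pathway convertase. It had 2299, 2163 and 775.3 normalized counts in unstimulated samples and 14856, 12640.4 and 8649 in LPS-primed samples. Replicate 3 was the lowest in both groups, and the groups did not overlap. Its log2FC was 2.79 (SE 0.34, adjusted p = 1.2e-05, edgeR). Cfp is on chromosome X (20791688 to 20797794, minus strand) and Gm61816 overlaps it on the opposite strand.

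The promoter window of Cfp is given beside that of C3 because both genes rose after 24 h of LPS (chrX:20931556-20931805, GRCm38.p6, minus strand).
Cfp: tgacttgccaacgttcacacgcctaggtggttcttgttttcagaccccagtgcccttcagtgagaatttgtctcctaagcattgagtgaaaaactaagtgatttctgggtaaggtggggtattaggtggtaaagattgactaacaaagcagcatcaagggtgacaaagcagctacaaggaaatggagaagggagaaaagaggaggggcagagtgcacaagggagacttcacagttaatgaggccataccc
None of the 6 patterns searched was present in these letters. Besides that of C/EBP, these were TGANTCA for AP-1, TTCNNNGAA for STAT factors, GAGGAA for the core of PU.1 sites, GGAANNGAA for composites of ETS and IRF factors, and the NF-kB consensus, and they were found in 6.75%, 7.02%, 23.3%, 6.99% and 3.9% of all promoters. Some of these patterns can overlap each other.

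The receptors moved in different directions. C5ar1 encodes the G protein-coupled receptor of C5a that carries most of its chemotactic signal. It had 2192, 1949 and 1509 normalized counts in unstimulated samples and 3144, 4245 and 2489.7 in LPS-primed samples, and the groups did not overlap. The log2FC was 0.81 (SE 0.20, adjusted p = 0.00667, edgeR). Without the samples numbered 2, an alternative chosen after the data were seen, it was 0.63 with an adjusted p of 0.0921 (edgeR). C5ar1 and C5ar2 are neighbours on chromosome 7, at 15980668 to 15993465 and 15968503 to 15978121, both on the minus strand and 2546 bases apart.

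C5ar2, the second C5a receptor, does not couple to G proteins. It was the lowest member, with 33 to 73 counts in unstimulated and 10 to 14 in LPS-primed samples. In normalized counts these were 31.5, 52.5 and 66.4, against 13.8, 15.9 and 9.38. Every primed sample was below every unstimulated one, and the log2FC was -1.94 (SE 0.51, adjusted p = 0.009, edgeR).

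C3ar1, the receptor of C3a, had 10134.5, 10347 and 11588 normalized counts in unstimulated samples. In LPS-primed samples it had 5268.5, 7426 and 6719.8. Its log2FC was -0.72 (SE 0.22, adjusted p = 0.023, edgeR), and it was lower in 3 of 3 pairs. Of the 6 fits that each left out a sample, 4 did not call it, with adjusted p from 0.0504 to 0.105 (edgeR) without unstimulated replicate 2 or 3 or LPS-primed replicate 1 or 3. C3ar1 lies on chromosome 6 at 122823393 to 122833122, minus strand.

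C3ar1 was the member that fell in both comparisons with unstimulated cells, and its promoter window is shown for that reason (chr6:122856158-122856407, GRCm38.p6, minus strand). Capitals mark TGANTCA, the AP-1 pattern.
C3ar1: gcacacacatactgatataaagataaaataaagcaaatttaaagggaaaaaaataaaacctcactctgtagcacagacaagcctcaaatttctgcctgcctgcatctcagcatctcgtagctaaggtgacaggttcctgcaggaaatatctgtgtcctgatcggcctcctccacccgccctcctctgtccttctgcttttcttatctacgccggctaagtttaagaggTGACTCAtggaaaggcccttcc
The pattern stood 22 to 16 bases before the RefSeq start.

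**Figure D2:**
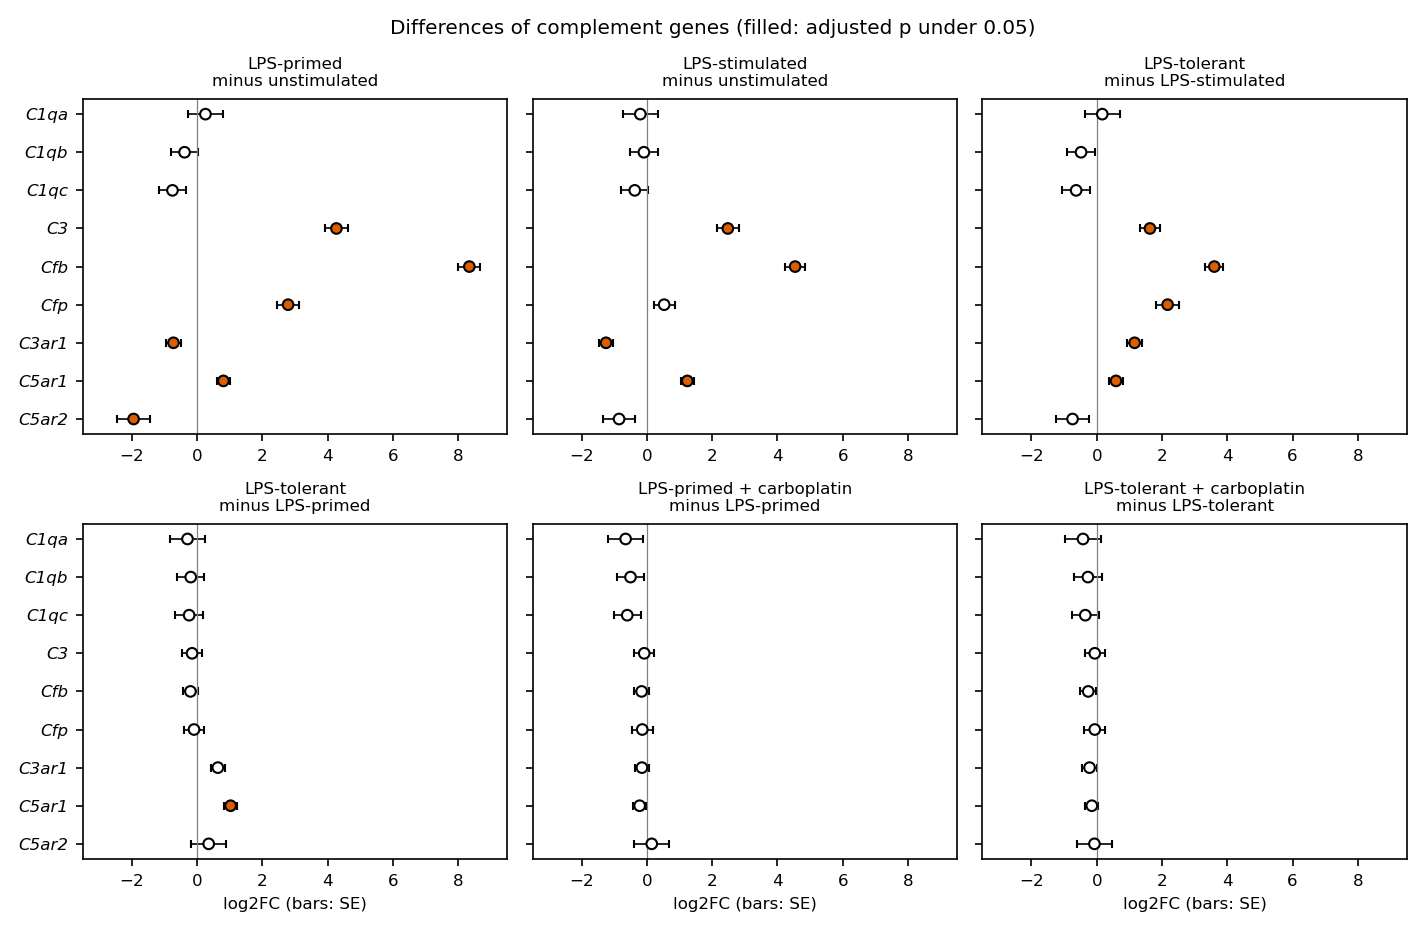
Log2FC of the 9 genes in 6 comparisons, with bars of 1 SE, from edgeR's fit of all 18 samples. Filled points had an adjusted p under 0.05: 6 members after priming, 4 after the single dose, 5 between tolerant and LPS-stimulated BMDMs, 1 between tolerant and primed BMDMs and 0 in each carboplatin comparison.

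The C1q genes encode the 3 chains of C1q, and lie side by side on the minus strand of chromosome 4. C1qb spans 136606009 to 136613511, C1qc 136616466 to 136620376 and C1qa 136623223 to 136626161, with gaps of 2954 and 2846 bases. C1qb and C1qc are overlapped on the opposite strand by Gm69251. The 250 bases before the RefSeq start of C1qb are shown as those of a gene of this cluster (chr4:136886201-136886450, GRCm38.p6, minus strand), with GAGGAA, the core of PU.1 sites, in capitals.
C1qb: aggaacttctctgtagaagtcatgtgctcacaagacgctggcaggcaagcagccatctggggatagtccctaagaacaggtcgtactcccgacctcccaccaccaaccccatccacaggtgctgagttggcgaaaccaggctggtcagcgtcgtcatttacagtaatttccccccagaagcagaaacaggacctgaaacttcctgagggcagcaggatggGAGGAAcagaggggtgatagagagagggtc
These letters stood 30 to 25 bases before the start. They were also found, on the other strand, 193 to 188 bases before the start of C1qc, which held the NF-kB consensus 41 to 32 bases before its start. The bases after this RefSeq start of C1qc stood at position 172 of its canonical GENCODE transcript, against 21 for C1qb. The match may therefore lie within that C1qc transcript. The window of C5ar1 held none of the 6 patterns. Of the 2 listed starts of C5ar2, the first was preceded by 2 matches to the C/EBP pattern and 1 to the ETS-IRF composite, and the second by GAGGAA. The bases after these starts of C5ar2 were not found in its canonical transcript. The windows of C1qa and Cfb were not used here.

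C1qa had 2384, 2905 and 1326 normalized counts in unstimulated samples and 1566, 4538 and 1803 in LPS-primed samples. C1qb had 12778, 14829.9 and 8671 and, after priming, 6623, 14749 and 6543. C1qc had 10757, 13071 and 7642 before and 4137, 10298 and 4219 after priming. In all of these genes the primed sample numbered 2 stood above the other two, and the groups overlapped.

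The log2FC of priming was 0.26 (SE 0.54, adjusted p = 0.781, edgeR) for C1qa. It was -0.38 (SE 0.42, adjusted p = 0.567, edgeR) for C1qb and -0.75 (SE 0.42, adjusted p = 0.217, edgeR) for C1qc, and the latter genes were lower in 3 of 3 pairs. With the replicate block, C1qc fell, with a log2FC of -0.86 (SE 0.21, adjusted p = 0.00335, edgeR), in a fit in which 19.8% of all genes fell. With all samples numbered 2 left out, again a choice made after the data were seen, C1qb and C1qc fell, with log2FC values of -0.68 and -1.12 and adjusted p of 0.0329 and 0.00257 (edgeR). Leaving out LPS-primed replicate 2 alone gave C1qc a log2FC of -1.33 (adjusted p = 0.0373, edgeR). That fit kept unstimulated replicate 2, the highest of its group. It was the 1 of 6 fits with a sample left out that called C1qc, and their log2FC values were -1.33 to -0.53.

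Replicate 2 held the highest value of each C1q gene in all groups but LPS-stimulated BMDMs. In LPS-primed BMDMs it was 2.69 times the mean of the other samples for C1qa, 2.24 times for C1qb and 2.46 times for C1qc. In primed BMDMs with carboplatin the ratios were 3.17, 2.25 and 2.19, in tolerant BMDMs 2.9, 2.36 and 2.32, and in tolerant BMDMs with carboplatin 2.33, 2.11 and 2.01. In unstimulated BMDMs they were 1.57, 1.38 and 1.42. After the single LPS dose the ratios for C1qb and C1qc were 0.991 and 0.993, and replicate 2 was the middle sample. Cd55, which encodes a regulator of complement on the cell surface, was also highest in replicate 2 of the 4 groups with 24 h of LPS, with 292 to 521 counts against 15 to 160 in the other samples. What set replicate 2 apart was not tested.

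**Figure D3:**
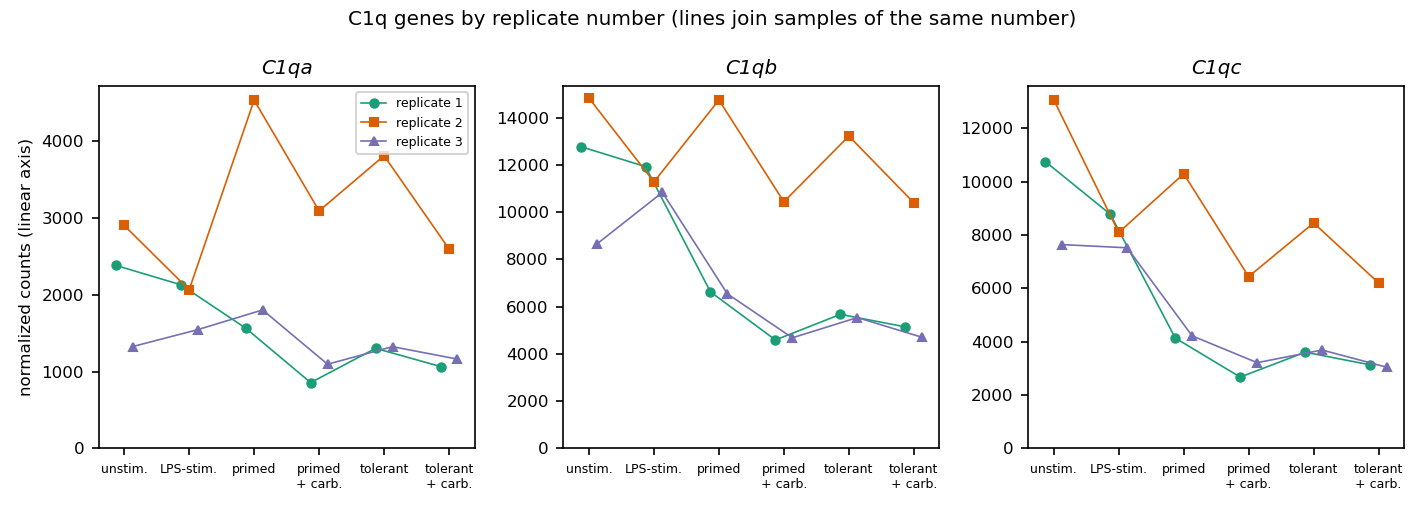
Normalized counts (linear axis from 0) of C1qa, C1qb and C1qc in the 6 groups. Lines join the samples of one replicate number, and replicate 2 lies above the others in all groups but LPS-stimulated BMDMs, by 2.01 to 3.17 times in the 4 groups with 24 h of LPS.

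The C1q genes moved together within groups. Over the 18 samples, deviations from the group means correlated at 0.98 between C1qa and C1qb, 0.99 between C1qa and C1qc and 0.99 between C1qb and C1qc, on log2 CPM. These points share libraries and the replicate number, so the values are a description. Of the other members, C3ar1 had the closest deviations, at 0.61 to 0.69 with the C1q genes.

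The ratio between the chains differed between groups. Per length of the canonical transcript, the level of C1qa was 0.378, 0.379 and 0.296 of that of C1qc in unstimulated samples and 0.645, 0.751 and 0.728 in LPS-primed samples. It was 0.414, 0.435 and 0.350 after the single dose of LPS and 0.616, 0.768 and 0.612 in LPS-tolerant BMDMs. All samples with 24 h of LPS were above all samples without, the carboplatin groups included, where the means were 0.649 ± 0.148 in primed and 0.648 ± 0.0669 in tolerant BMDMs (SD, n = 3). Replicate 2, which stood apart in level, also had the highest ratio in every group, at 0.714 to 0.818 in these 4 groups. The ratio of C1qb to C1qc went from a mean of 0.843 ± 0.0225 in unstimulated to 1.02 ± 0.0302 in LPS-stimulated and 1.12 ± 0.0634 in LPS-primed BMDMs. No test was made of these ratios.

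The single dose of LPS at 10 ng/ml was also set against unstimulated BMDMs. Here 3 members rose, C3, Cfb and C5ar1, and 1 fell, C3ar1, while 24.3% of all genes rose and 26.9% fell. The median log2FC was -0.09 for the members and -0.09 for all genes. C3 and Cfb passed the study's limits, against 12.0% of all genes. C3 had 5292, 3354 and 4393 normalized counts in the LPS-stimulated samples, all above the unstimulated ones (log2FC 2.48, SE 0.33, adjusted p = 9.1e-06, edgeR), and the log2FC was 3.18 (SE 0.24) without unstimulated replicate 1. Cfb had 601.3, 436.6 and 656.6 (log2FC 4.54, SE 0.30, adjusted p = 3.9e-09, edgeR). Replicate 2 was the lowest sample for both genes.

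C5ar1 had 5523, 3405 and 4428 normalized counts after the single dose, with a log2FC of 1.24 (SE 0.20, adjusted p = 8.24e-05, edgeR). C3ar1 had 4739, 5339.7 and 3425, and its mean was the lowest of the 6 groups, with a log2FC of -1.25 (SE 0.22, adjusted p = 0.000202, edgeR). Both moved the same way in 3 of 3 pairs. C5ar2 had 46.5, 11.1 and 27.6 normalized counts, a range that overlapped the unstimulated samples (log2FC -0.85, SE 0.48, adjusted p = 0.147, edgeR). Without LPS-stimulated replicate 1, the highest of these, its log2FC was -1.39 (adjusted p = 0.0324, edgeR).

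Cfp did not pass this test, with 3058, 2095 and 2417 normalized counts and a log2FC of 0.53 (SE 0.32, adjusted p = 0.181, edgeR). With the replicate block it rose, with a log2FC of 0.63 (SE 0.19, adjusted p = 0.00966, edgeR), where 29.5% of all genes rose. It was higher in 2 of 3 pairs, by 3.12 times in replicate 3 and by 0.969 times, that is slightly lower, in replicate 2. The log2FC was -0.20 for C1qa, -0.09 for C1qb and -0.37 for C1qc, each below its SE of 0.54, 0.42 and 0.42.

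LPS-tolerant BMDMs were compared with LPS-stimulated BMDMs, which had received the same last dose without priming. This comparison sets the levels after the last dose side by side, so differences already present after priming are part of it. In tolerant cells 5 members were higher, C3, Cfb, Cfp, C3ar1 and C5ar1, and 0 were lower, while 16.2% of all genes were higher and 18.3% lower. Cfb and Cfp passed the study's limits, as did 8.04% of all genes. The median log2FC of the members was 0.59, and that of all genes 0.00.

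Cfb had 6975.5, 6238.5 and 7378 normalized counts in tolerant samples, with a log2FC of 3.60 against the LPS-stimulated samples (SE 0.27, adjusted p = 3e-08, edgeR). Cfp had 14167, 11383 and 8428 (log2FC 2.17, SE 0.34, adjusted p = 9.1e-05, edgeR). C3 had 13679.9, 10729 and 16016 (log2FC 1.63, SE 0.32, adjusted p = 0.000684, edgeR). For each of these genes the lowest tolerant sample exceeded the highest LPS-stimulated sample.

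C3ar1 had 7592, 12007 and 10671.5 normalized counts in tolerant samples, and its log2FC was 1.16 (SE 0.22, adjusted p = 0.000642, edgeR). C5ar1 had 6792, 6341 and 6997, the highest level of this gene in any group, with a log2FC of 0.59 (SE 0.20, adjusted p = 0.03, edgeR). The call of C5ar1 was lost without LPS-tolerant replicate 1 or 3 or LPS-stimulated replicate 2 or 3, with adjusted p of 0.0643, 0.0788, 0.143 and 0.0727 (edgeR), and without all samples numbered 2 (adjusted p = 0.161, edgeR). C5ar2 had 12.7, 17.3 and 19.6 normalized counts and a log2FC of -0.74 (SE 0.51, adjusted p = 0.281, edgeR).

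The tolerant samples had 1303, 3814 and 1325 normalized counts of C1qa, 5672.5, 13222 and 5536.5 of C1qb, and 3606, 8455 and 3687.5 of C1qc. Their log2FC values were 0.17, -0.48 and -0.63, with adjusted p of 0.842, 0.407 and 0.267 (edgeR). With the replicate block, C1qb and C1qc were lower in tolerant cells, with log2FC values of -0.65 and -0.80 and adjusted p of 0.0151 and 0.00487 (edgeR), where 24.7% of all genes were lower. These genes were lower in 2 of 3 pairs, and in replicate 2 the tolerant sample was 1.17 and 1.04 times the LPS-stimulated one. Without the samples numbered 2, the log2FC values were -1.01 and -1.15 (adjusted p = 0.00366 and 0.00182, edgeR).

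The second dose was also compared with priming alone. Of the members, C5ar1 was higher in LPS-tolerant than in LPS-primed BMDMs and the other 8 did not pass, while 3.60% of all genes were higher and 2.71% lower. No member passed the study's limits (0.681% of all genes), and the median log2FC was -0.15 for the members and -0.01 for all genes. The log2FC of C5ar1 was 1.03 (SE 0.20, adjusted p = 0.00551, edgeR), and every tolerant sample was above every primed one. C3ar1 had a log2FC of 0.64 (SE 0.22, adjusted p = 0.0992, edgeR), with 3 of 3 pairs higher. Blocked on the replicate number, C3ar1 rose, with a log2FC of 0.63 (SE 0.15, adjusted p = 0.00844, edgeR), where 9.67% of all genes rose, and DESeq2 gave an adjusted p of 0.0478.

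C3, Cfb and Cfp did not pass the test, with log2FC values of -0.15 (SE 0.31), -0.20 (SE 0.24) and -0.09 (SE 0.32). The highest tolerant sample of Cfb, at 7378 normalized counts, was just under the lowest primed sample, at 7499.5, but the adjusted p was 0.707 (edgeR). The C1q genes had log2FC values of -0.29, -0.19 and -0.24, with 3 of 3 pairs lower for each gene and adjusted p of 0.806 or more (edgeR).

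The response to LPS at 10 ng/ml was next compared between primed and unprimed cells, as the difference between the log2FC of tolerant over primed and that of LPS-stimulated over unstimulated BMDMs. Both C3 and Cfb responded less to the second dose. Their differences were -2.64 (SE 0.45, adjusted p = 0.000312, edgeR) and -4.73 (SE 0.38, adjusted p = 1.1e-07, edgeR), in the same direction in 3 of 3 replicates, and that of C3 was -3.32 (SE 0.30) without unstimulated replicate 1. The responses of both genes started from unlike levels. Means were 777.7 normalized counts in unstimulated and 14993 in primed BMDMs for C3, and 24.5 and 7858 for Cfb. After the last dose both genes were higher in tolerant than in LPS-stimulated BMDMs, as given above. C3ar1 fell after the first dose and not after the second, and its difference was 1.89 (SE 0.32, adjusted p = 0.000288, edgeR). In this contrast 10.5% of all genes had a higher and 13.3% a lower second response, against 1 and 2 members.

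The difference was -0.21 (SE 0.28, adjusted p = 0.643, edgeR) for C5ar1, whose 2 responses were 1.24 and 1.03. It was -0.62 (SE 0.46) for Cfp and 1.21 (SE 0.72) for C5ar2, with adjusted p of 0.367 and 0.255 (edgeR). With the replicate block the second response of Cfp was lower, by a difference of -0.71 (SE 0.27, adjusted p = 0.049, edgeR), in the same direction in 3 of 3 replicates, where 19.0% of all genes were lower. For C1qa, C1qb and C1qc it was -0.09, -0.10 and 0.12. Tolerant and primed BMDMs also differed by 3 h in the time after the first LPS and by a change of medium, which cannot be told apart from the second dose. The labels do not give the length of the single exposure, so the 2 responses may cover different times.

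**Figure D4:**
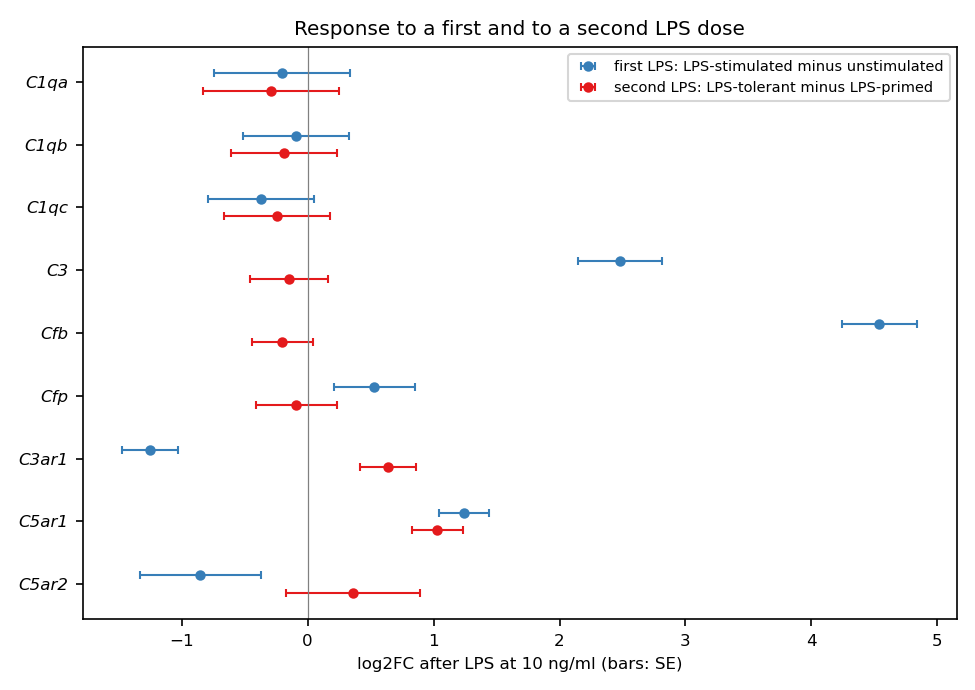
Log2FC, with bars of 1 SE, after LPS at 10 ng/ml in BMDMs without earlier LPS (blue) and in BMDMs primed with LPS at 100 ng/ml for 24 h (red). C3 and Cfb lay at 2.48 and 4.54 after the first dose and at -0.15 and -0.20 after the second, C3ar1 at -1.25 and 0.64, and C5ar1 at 1.24 and 1.03.

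No member passed the test with carboplatin. Between LPS-primed BMDMs with and without the drug, 0 of 9 members passed, as against 0.372% of all genes, or 0.265% at the study's limits with an adjusted p under 0.25. In LPS-tolerant BMDMs, 0 of 9 members passed, against 0.425% of all genes, or 0.389% at the study's limits. With the replicate block, 0 members passed in either comparison. The unadjusted counts of genes with p under 0.05 were 776 and 761 of 11305, and DESeq2 and limma-voom also called 0 members.

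C3 had 13642, 12428 and 16566 normalized counts in primed samples with carboplatin (log2FC -0.08, SE 0.31) and 13678, 10713 and 14383 in tolerant samples with carboplatin (log2FC -0.06, SE 0.31). Cfb had 6926, 7036 and 7095 in primed samples with carboplatin, each below every primed sample without it, with a log2FC of -0.16 (SE 0.24, adjusted p = 0.989, edgeR). In tolerant samples with carboplatin it had 6412, 4976 and 5864 (log2FC -0.26, SE 0.24). Cfp had 13279.9, 10689 and 8915 in primed and 13097, 10723 and 8714 in tolerant samples with carboplatin, with log2FC values of -0.14 and -0.06 (SE 0.32 for both).

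Among the receptors, C3ar1 had 4686, 7429 and 5428 normalized counts in primed and 6639.9, 10268 and 9046 in tolerant samples with carboplatin (log2FC -0.15 and -0.22, SE 0.22). C5ar1 had 3028, 3032 and 2448 and then 5426, 6006 and 6690.3 (log2FC -0.22 and -0.15, SE 0.20). C5ar2 had 7 to 25 counts in these groups, and its log2FC values were 0.15 (SE 0.54) and -0.07 (SE 0.53), so that only large changes could have been seen.

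The widest differences with carboplatin were those of the C1q genes. In primed samples with carboplatin, C1qa had 856.2, 3094 and 1096 normalized counts, C1qb 4588, 10438 and 4678, and C1qc 2671, 6441 and 3213. Their log2FC values were -0.65 (SE 0.54), -0.50 (SE 0.42) and -0.60 (SE 0.42), with adjusted p of 0.906 to 0.938 (edgeR), and 0.222 to 0.272 with the replicate block. In tolerant samples with carboplatin, C1qa had 1066, 2599 and 1162, C1qb 5141, 10397 and 4699, and C1qc 3131, 6203 and 3039.6. The log2FC values there were -0.42, -0.27 and -0.35, with adjusted p of 1.0 (edgeR).

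Lower values in all 3 same-numbered pairs were found for 6 members in the primed comparison (C1qa, C1qb, C1qc, C3, Cfb and C5ar1), where 20.7% of all tested genes were lower in all 3 pairs. In the tolerant comparison there were 7 such members, the same genes with C3ar1, against 22.0% of all genes. C3 was among them with ratios of 1.0, 0.998 and 0.898 in the pairs numbered 1 to 3. The C1q genes moved together within groups, so the members in these counts are not independent of each other. The median log2FC of the members was -0.16 and -0.22, and that of all genes 0.01 in both comparisons. The carboplatin effects in tolerant and primed BMDMs differed by -0.22 to 0.25 in the 9 members, none past the test, and no gene of all 11305 passed it (131 had an unadjusted p under 0.05, and 153 by DESeq2, which also called 0).

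Over the 6 groups, the order of the means and the overlap of neighbours differed between genes. Cfb was highest in LPS-primed BMDMs, at 7858 ± 324.3 (mean ± SD, n = 3), and lowest in unstimulated BMDMs, at 24.5 ± 14.3, a ratio of 320.5. Its sample ranges were apart between primed BMDMs with and without carboplatin, between tolerant BMDMs with carboplatin and LPS-stimulated BMDMs, and between the latter and unstimulated BMDMs. C3 spanned a ratio of 19.3 and Cfp one of 6.90, and the 4 groups with 24 h of LPS overlapped their neighbours for both genes. The 2 remaining steps of C3 were apart, but LPS-stimulated and unstimulated BMDMs overlapped for Cfp.

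C5ar1 ranked from tolerant over LPS-stimulated and primed to unstimulated BMDMs, with a ratio of 3.56, and the lowest step, between primed BMDMs with carboplatin and unstimulated BMDMs, was the one without overlap. C3ar1, with a ratio of 2.38, was highest in unstimulated and lowest in LPS-stimulated BMDMs. C5ar2 spanned 3.85, C1qc 2.55, C1qb 1.84 and C1qa 1.64. For C3ar1, C5ar2 and the C1q genes, the ranges of all neighbouring groups overlapped.

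Levels could be set against each other only per transcript length, here that of the canonical transcript. The order below depends on this choice. For C1qb the canonical transcript has 2532 bases and all annotated exons together have 6246, and for C1qc these are 1852 and 2860. As a mean of the 6 groups, Cfp had 539.6 CPM per kb, C1qb 383.3, C1qc 370.5, C3 210.8, C1qa 200.9, C5ar1 177.6, C3ar1 165.3 and Cfb 150.3. C5ar2 had 0.694 CPM per kb. In unstimulated BMDMs C1qc was the highest member, at 608.5 ± 158.0 CPM per kb (SD, n = 3), and in LPS-primed BMDMs it was Cfp, at 788.8 ± 206.0.

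Patterns over the 18 samples were compared by Pearson's r of log2 CPM, as a description of points that share groups and libraries. C3 and Cfb were alike at 0.99, and each was alike with Cfp at 0.90, while C1qb and C1qc were alike at 0.98. For deviations from the group means, r was 0.68 for C3 with Cfb, 0.29 for C3 with Cfp and -0.15 for Cfb with Cfp. For C1qb with C1qc it was 0.99. C5ar1 reached 0.61 with C3, and C5ar2 was opposite to C3 at -0.79. C3ar1 had an r between -0.28 and 0.34 with every other member. The genes nearest to C3 among all tested genes were Lcn2 (0.988) and Slc16a3 (0.982), those nearest to Cfb were Irak3 and Fpr2 (0.989 each), and those nearest to Cfp were Pf4 (0.983) and Mif (0.978). C1qb and C1qc were both nearest to Lgmn (0.94 and 0.98), followed by Fgl2 (0.879) and Mcm4 (0.925), and C1qa to Ms4a7 (0.858) and Xdh (0.838). C3ar1 was nearest to BC005537 (0.942) and Pcyt1a (0.93), C5ar1 to Slc20a1 (0.946) and Id2 (0.92), and C5ar2 to Ankdd1a (0.852) and Osbpl10 (0.822).

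A list of 49 other complement genes set these members in their pathway. Of these, 16 were tested, 32 did not pass the expression filter, with at most 13 counts in any sample and 10 of them at 0 in every sample, and C4a was not matched. None of the 8 genes of the alternative and terminal list was tested, among them Cfd, C6, C7, C9 and Hc, which encodes C5. Hc had at most 11 counts in a sample.

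After priming, 7 of the 16 tested genes rose and 3 fell, against 12.1% and 13.1% of all genes. With the replicate block 5 fell, against 19.8%. The median log2FC was 0.03, and -0.02 for all genes. C1ra and C1s1, which encode the proteases that bind to C1q, rose with log2FC values of 3.32 (SE 0.19) and 6.87 (SE 0.62), and C1s1 had 2 to 6 counts in unstimulated and 192 to 784 in LPS-primed samples. Their near copies C1rb and C1s2 had few reads, and how reads were split within these pairs is uncertain. The genes of complement receptor 3, Itgam and Itgb2, rose with log2FC values of 2.47 (SE 0.20) and 0.75 (SE 0.16), and Calr, which encodes a C1q-binding chaperone, by 1.18 (SE 0.17). Cd55, a brake on convertases, had 4 to 9 counts before and 62, 394 and 160 after priming, where replicate 2 was highest (log2FC 5.33, SE 1.18, adjusted p = 0.0028, edgeR). Colec12, a scavenger collectin, fell (log2FC -1.42, SE 0.16), as did Fcna and Itgax.

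After the single dose, 3 of the 16 rose (C1ra, Cr1l and C1qbp) and 3 fell (Colec12, Cd59a and Lrp1), while 24.3% of all genes rose and 26.9% fell. Under the block 5 of the 16 rose, against 29.5% of all genes. Between tolerant and LPS-stimulated BMDMs, 7 were higher: C1ra, C1s1, Cd55, Itgam, Itgb2, Calr and Lrp1. Another 4 were lower, among them Fcna, C1qbp and Itgax, while 16.2% and 18.3% of all genes were higher and lower. With the block 5 were lower, against 24.7% of all genes. After the second dose Colec12 alone was higher than in primed cells, with a log2FC of 0.99 (SE 0.16, adjusted p = 0.00141, edgeR), and 0 were lower, against 3.60% and 2.71% of all genes. Under the block 1 was lower. In each carboplatin comparison 0 of the 16 passed, as against 0.372% of all genes in primed and 0.425% in tolerant BMDMs. With the block, 1 was lower in primed BMDMs given carboplatin (1.53% of all genes), and Colec12 was lower in tolerant BMDMs given carboplatin (log2FC -0.71, adjusted p = 0.0076, edgeR), where 1.43% of all genes were lower. For the second minus the first response, 2 were higher and 2 lower, and 4 were lower with the block, against 10.5%, 13.3% and 19.0% of all genes.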

How the data were processed

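RNA was sequenced from 18 BMDM samples, and the files hold counts of read pairs per gene. HISAT2 was used by the authors for alignment to GRCm39 and HTSeq-count for counting, and the counts were deposited without normalization. Versions, annotation and strand option are not given in the sources used here. Reads not assigned to a gene made up 41.5 to 46.9% of all counted lines and were left out.

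Groups follow the sample labels. Counts were tested with edgeR 4.0.16 in R 4.3.3 (TMM, filterByExpr with minimum count 10 and total 15, prior count 0.125 for log2FC), with 1 mean per group. SE was obtained as |log2FC| over the root of the F statistic. Fits were tested on simulated data drawn without a replicate effect, so that test does not cover the shared deviations of same-numbered samples. The alternatives comprised DESeq2 1.42.0, limma-voom (limma 3.58.1), other scalings, filters and limits, the groups compared alone, left-out samples and the replicate block. The pairing comes from the replicate numbers in the sample titles. After removal of group means, same-numbered samples correlated over 0.1 in 3 of 3 pairs of each 2-group comparison, and in 32 of 33 pairs overall (mean 0.374). Log2 CPM for likeness used a prior count of 2.

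Positions and lengths are those of GENCODE vM39, and promoters those of RefSeq on GRCm38.p6, matched by symbol for 7 of 9 members. Motifs were chosen with the sequences in view. The members and gene lists were chosen with earlier results of these data known. Named genes are the members, other complement genes past the study's limits or with the most counts of their list, and the 2 nearest genes of each member. Fcna, Itgax, Cd59a and Lrp1 were named after their values were seen. The values of 1 gene of the list are not reported here. A count of a gene at 10 carries a wide sampling error, and intervals of counting error are not given.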

Additional observations from a re-analysis of the deposited data

Results flagged for a closer look

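The response to LPS at 10 ng/ml differed between primed and unprimed BMDMs for 3 members and 4 other complement genes, by a test of the difference itself (edgeR, adjusted p under 0.05). Of all tested genes, 10.5% had a higher and 13.3% a lower second response. In log2, the second response minus the first was -2.64 for C3, -4.73 for Cfb and 1.89 for C3ar1. Among the other complement genes it was -1.44 (SE 0.25, adjusted p = 4.2e-04, edgeR) for C1ra, 0.79 (SE 0.21, adjusted p = 0.00975, edgeR) for Lrp1, 1.49 (SE 0.23, adjusted p = 1.2e-04, edgeR) for Colec12 and -0.60 (SE 0.19, adjusted p = 0.0331, edgeR) for C1qbp. C1ra and C1qbp, which encodes a C1q-binding protein, rose after the first dose, by 1.24 and 0.93, and had log2FC values of -0.19 and 0.34 after the second. Without the samples numbered 2, C1qbp had an adjusted p of 0.232 (edgeR). Colec12 fell by 0.50 after the first dose and rose by 0.99 after the second, while Lrp1, which encodes an endocytic receptor, fell by 0.79 after the first and had a log2FC of -0.01 after the second.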

How the results depend on the processing

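Of the member log2FC values under alternatives other than a left-out sample, 823 kept their direction and their side of the threshold, 13 were newly called, 7 lost the call and 18 changed sign, and with a sample left out these numbers were 462, 2, 8 and 68. C3 and Cfb kept every call in the LPS comparisons with unstimulated cells and between tolerant and LPS-stimulated cells. The cause of the changes given here was not tested. Scaling by library size alone moved the median log2FC of all genes from -0.02 to -0.26 in primed and from -0.09 to -0.43 in LPS-stimulated over unstimulated cells, and members moved with it. The sign changes were in values that had not passed the test. Under library size alone, C3 and Cfp reached 0.00 for carboplatin in tolerant cells, and for the second minus the first response C1qa was 0.15, C1qb 0.14 and C5ar1 0.02. Without the samples numbered 2, C1qa was -0.12 for primed over unstimulated, 0.01 for LPS-stimulated over unstimulated and -0.47 for tolerant over LPS-stimulated, C1qb was 0.11 for LPS-stimulated over unstimulated, C5ar2 was -0.29 for carboplatin in primed cells, C1qc was -0.03 for the second minus the first response, and the difference of the carboplatin effects was -0.03 for C3, 0.01 for C3ar1, -0.16 for C5ar1 and 0.28 for C5ar2. With limma-voom C1qa was -0.00 for tolerant over LPS-stimulated, with the replicate block it was -0.07, and in the fit of the groups compared the difference of the carboplatin effects was -0.00 for C3. With a sample left out, the sign changed for the values whose ranges follow. For primed over unstimulated, the range was C1qa -0.39 to 0.53. For LPS-stimulated over unstimulated, the range was C1qa -0.44 to 0.07 and C1qb -0.26 to 0.11. For tolerant over LPS-stimulated, the range was C1qa -0.54 to 0.43. For tolerant over primed, the range was C1qa -1.0 to 0.35, C1qb -0.73 to 0.31, C1qc -0.77 to 0.33 and Cfp -0.28 to 0.09. For carboplatin in primed cells, the range was C3 -0.20 to 0.03, Cfp -0.33 to 0.04, C5ar1 -0.38 to 0.01 and C5ar2 -0.45 to 0.49. For carboplatin in tolerant cells, the range was C1qa -0.95 to 0.29, C1qb -0.73 to 0.27, C1qc -0.77 to 0.18, C3 -0.20 to 0.08, Cfp -0.24 to 0.13 and C5ar2 -0.31 to 0.08. For the second minus the first response, the range was C1qa -0.80 to 0.55, C1qb -0.64 to 0.40, C1qc -0.40 to 0.70 and C5ar1 -0.38 to 0.01. For the carboplatin effect in tolerant minus primed cells, the range was C1qa -0.42 to 1.01, C1qb -0.27 to 0.77, C1qc -0.33 to 0.78, C3 -0.12 to 0.16, Cfb -0.18 to 0.00, Cfp -0.11 to 0.26, C3ar1 -0.25 to 0.13, C5ar1 -0.16 to 0.23 and C5ar2 -0.57 to 0.38.

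Counts moved as follows, with the number of all genes given beside them for some settings only. Members that fell after priming numbered 1 at an adjusted p under 0.01 or with |log2FC| > 1, 4 without the samples numbered 2, and 1 to 3 with a sample left out. After the single dose, 2 members fell under library size alone or limma-voom, and 1 to 2 with a sample left out. Of all 11305 genes, 4636 fell there under library size alone and 3225 by limma-voom. The block changed these member calls: C1qc fell after priming, Cfp rose after the single dose, C1qb and C1qc fell in tolerant against LPS-stimulated cells (2 members, also 2 without the samples numbered 2), and C3ar1 rose in tolerant against primed cells (2 members, also 2 by DESeq2). For the second minus the first response, where 17 of 18 pairs correlated over 0.1, the block gave Cfp -0.71 (adjusted p = 0.049, edgeR). It changed no other call of a member.

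Of the other complement genes, those that rose after priming numbered 4 with at least 10 counts in every sample, and those that fell numbered 5 under library size alone and 5 with the replicate block. Of all 11305 genes, 2598 fell after priming under library size alone and 2235 with the block. After the single dose, 5 rose with the block and 1 with |log2FC| > 1, while those that fell numbered 1 at an adjusted p under 0.01, 0 with |log2FC| > 1, 1 without the samples numbered 2, 1 in the fit of the groups compared and 1 to 3 with a sample left out. Between tolerant and LPS-stimulated cells, 4 were higher with |log2FC| > 1 and 1 lower without the samples numbered 2. Between tolerant and primed cells, 0 were higher with |log2FC| > 1 or without the samples numbered 2, and 1 was lower with the block. With carboplatin, 1 was lower with the block in primed cells, and in tolerant cells 1 with the block, 1 by DESeq2 and 0 to 1 with a sample left out. By DESeq2, 135 of all 11305 genes were lower with carboplatin in tolerant cells. For the second minus the first response, 1 was higher with |log2FC| > 1, and 1 was lower under library size alone, without the filter, at an adjusted p under 0.01, with |log2FC| > 1, without the samples numbered 2 or in the fit of the groups compared, 4 with the block and 1 to 3 with a sample left out.

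Under library size alone, 4 of the 6 groups kept their rank for C1qb, C1qc and C3 and 3 for Cfp, and likeness moved to -0.30 for C1qa with C3, -0.28 for C1qa with Cfb, -0.11 for C1qa with C5ar1, -0.64 for C1qb with C3, 0.32 for C1qb with C3ar1, -0.27 for C1qb with C5ar1, 0.36 for C1qc with C3ar1, -0.33 for Cfb with C3ar1 and 0.44 for C3ar1 with C5ar2. Depth limits C5ar2, with 7 to 73 counts per sample, and Cfb in unstimulated cells.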
